A study of Rattus norvegicus and Mus musculus with 251 samples.

Results

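The genes described are 32 genes of astrocyte biology, out of 46078 gene identifiers in the mouse count table. They were chosen by symbol as genes of astrocyte biology, with earlier results of these data known, and each symbol matched 1 row. They comprise 5 genes of glutamate uptake and recycling or amino acid exchange, 5 of water, ion and pH transport and adhesion, and 2 connexins. A further 4 are of cytoskeleton, calcium binding and cell identity, 4 are receptors and surface proteins, and 4 are of metabolism. The rest are 5 secreted proteins and lipid carriers and 3 metallothioneins. The study measured RNA in the prefrontal cortex (PFC) and nucleus accumbens (NAc) of C57BL/6J mice, an inbred strain, that drank either saline or a morphine solution. No transgene or mutation was given in the labels used here, and neither was an age. The groups were mice on saline ("Sal", 6 PFC and 7 NAc libraries), on chronic morphine ("Chronic mor", 8 and 8), and those labelled "Mor + 24h" (9 and 9) and "Mor + 2W" (7 and 8), read here as 24 h and 2 weeks after morphine. Every group held males and females, with 3 or 4 females each. The labels do not say whether a library number is an animal or whether libraries came from separate mice, so p-values measure the spread between these libraries, part of which may be technical.

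Astrocytes take up the glutamate that synapses release, turn it into glutamine, buffer potassium, water and pH around neurons, and couple to each other through gap junctions. They also supply neurons with lipids in apolipoprotein particles, store the brain's glycogen, and make metallothioneins, small proteins that bind zinc and copper through their cysteines. Astrocytes of cortex and striatum are known to differ in the set of genes that they use.

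The libraries held 24936879 to 41532464 gene counts in PFC, apart from number 10 of the 2-week group with 5182601, and 22387525 to 43963295 in NAc. All 32 genes passed the filter on low counts in both regions. Their lowest count was 28, for Bmpr1b in PFC number 10, and 167 in the other PFC libraries. The labels call the cell type neuron, but the samples were tissue punches, and in saline mice the 32 genes took 1.50% ± 0.08 (SD, n = 6) of the counts in PFC and 1.26% ± 0.10 (SD, n = 7) in NAc. Striatal projection neuron markers were higher in NAc for 10 of 10 genes and cortical ones lower for 10 of 10, so as groups the region labels fitted their markers. Single NAc libraries stood apart. In log2 CPM (log2 of the library-scaled counts), the striatal marker Drd1 read 3.18 in saline number 6 and 3.51 in chronic number 25. It reached 3.22 in PFC. The cortical marker Slc17a7 read 9.22 in NAc number 24 at 24 h, beside at most 6.06 in the other NAc libraries. Number 27, labelled female and on chronic morphine, had the Y-linked Ddx3y at 5.72 in PFC and 6.28 in NAc. Its female-expressed Xist read -3.96 and 0.13, within the range of the libraries labelled male in each region. Values without number 27 are given for Apoe, Ppp1r3c and Sox9 in NAc, and for counts and medians of the 32 genes there. Most other values that use the chronic group, with those of other gene lists, are given only with it. NAc number 28, labelled male and on chronic morphine, had the female-expressed Xist at 4.20 log2 CPM beside the Y-linked Ddx3y at 6.24. Xist read at most 1.77 in the other NAc libraries labelled male. The cause was not tested. In such bulk tissue, fewer astrocytes and less RNA per astrocyte cannot be told apart.

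Read per length, as the median RPKM over saline libraries (reads scaled to exon length and library size), the lipid carrier Apoe had the highest level, at 1008 in PFC and 1125 in NAc. Sparcl1, a secreted matrix protein that acts on synapses, followed with 935 and 674, and glutamine synthetase (Glul) with 616 and 354. Next in both regions came the glycolytic enzyme Aldoc, at 350 and 230, and the chaperone clusterin (Clu), at 320 and 210. At the low end stood the enzyme Cbs, at 4.68 and 3.45, the bone morphogenetic protein receptor Bmpr1b, at 3.99 and 3.87, and the transcription factor Sox9, at 6.73 and 5.52. Agt, the angiotensin precursor, was among the lowest in PFC with 5.06 and reached 40.2 in NAc. The order of the genes at the top was the same in the medians of both regions, whereas Agt changed its place.

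**Figure D1:**
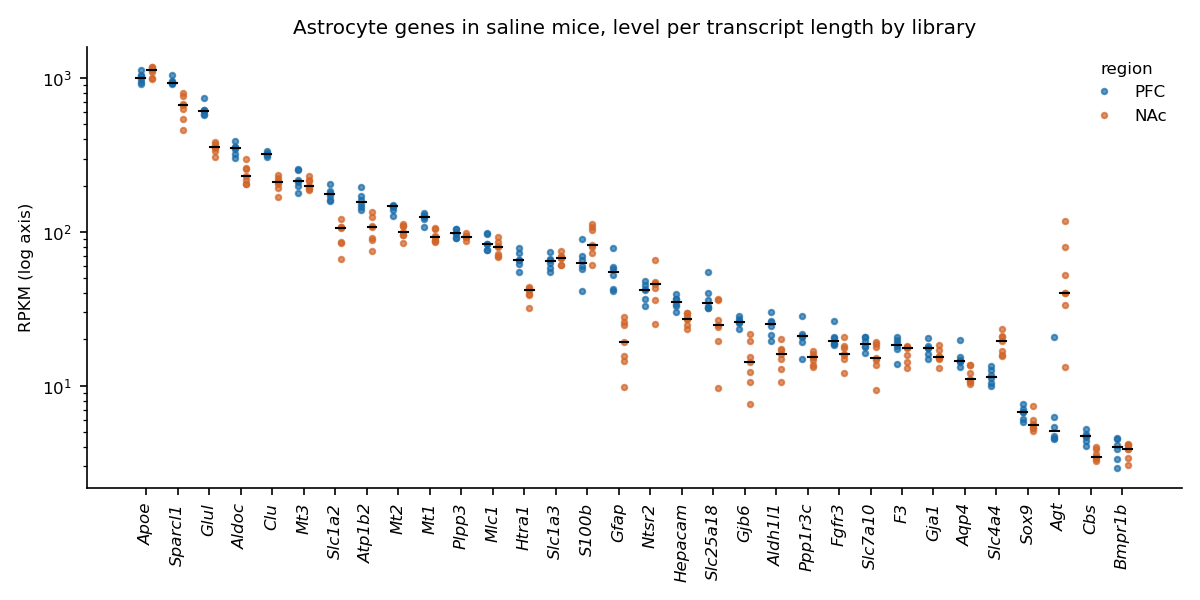
RPKM (log axis) of the 32 genes in each saline library, with PFC in blue (n = 6) and NAc in orange (n = 7) and black bars for the medians. Apoe, Sparcl1 and Glul stand highest, and the points of Agt overlap between the regions only through PFC number 5 and NAc number 3.

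Most of the genes that separated the regions were lower in NAc than in PFC of saline mice. edgeR called 18 of the 32 genes (a Benjamini-Hochberg adjusted p under 0.05 over all genes tested), of which 15 were lower and 3 higher in NAc. The difference is common among genes at large, since 35.9% of the 19266 genes tested were called. The median log2 fold change of the 32 genes was -0.37, with 6 of 32 above 0, beside 0.05 over all genes, of which 53.8% were above 0. For 14 of the 32 genes (43.8%) no NAc saline library overlapped a PFC one, which held for 21.7% of all genes tested. Scaled by total counts alone, an alternative added after seeing the data, 14 genes were called (10 lower, 4 higher) and the median was -0.20, while that of all genes moved to 0.22. With that scaling Hepacam, Fgfr3, Ppp1r3c, Mt1 and Mt2 lost their call and Slc1a3 gained one.

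Markers of other cell types differed between the regions as well, and their part in the result was not tested beyond the fits given here. Vascular and meningeal markers were lower in NAc: 7 of 8 endothelial genes were called (median -0.79, a summed CPM of 265 to 320 in PFC and 158 to 227 in NAc saline libraries), 6 of 7 mural genes (median -1.01, 256 to 307 and 111 to 152) and 7 of 7 meningeal fibroblast genes (median -1.53, 98.3 to 186 and 25.8 to 71.1). Of 10 general neuron markers 6 were lower and 1 was higher (median -0.84). Oligodendrocyte precursor markers were higher for 5 of 6 genes (median 0.68). Of choroid plexus and ependymal markers 2 of 8 and 2 of 7 were called, as higher, which is not above the share of all genes. That share, beside which all these counts stand, was 35.9% called in this contrast. No gene of these lists was at 0 in every library.

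Values below are log2 CPM, that is log2 of the library-scaled counts, unless another unit is named. Counts of genes called between the regions in the groups below stand beside 35.9% of all genes called.

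Of the 5 genes of glutamate uptake and recycling or amino acid exchange, 2 were lower in NAc and 3 were not called. Slc1a2, which carries most of the forebrain's glutamate uptake, had a lowest, median and highest log2 CPM of 11.04, 11.17 and 11.38 in PFC and of 9.77, 10.44 and 10.63 in NAc saline libraries. All NAc libraries lay below all PFC libraries, and the log2 fold change was -0.86 ± 0.13 (SE, edgeR adjusted p = 4.16e-07). Its partner Slc1a3 read 8.87, 9.10 and 9.30 in PFC and 9.02, 9.18 and 9.33 in NAc, groups that overlapped, with a log2 fold change of 0.07 (95% interval -0.12 to 0.26). Glul, which makes glutamine from glutamate, stood at an RPKM of 579, 616 and 738 in PFC and of 308, 354 and 384 in NAc, again without overlap. It was lower, at -0.83 ± 0.09 on the log2 scale (SE, edgeR adjusted p = 1.45e-11), which is 0.561 of the PFC level. The mitochondrial glutamate carrier Slc25a18 (-0.61 ± 0.28, adjusted p = 0.0813) and the serine and glycine exchanger Slc7a10 (-0.31, adjusted p = 0.115) were not called by edgeR. With 2 surrogate variables in the fit both were called as lower, Slc25a18 with an edgeR adjusted p of 6.70e-07 and Slc7a10 at -0.47 (edgeR adjusted p = 2.49e-04), and Slc7a10 also with the oligodendrocyte score as a covariate, at -0.42 (edgeR adjusted p = 0.0356). Slc25a18 overlaps a gene on the other strand, as do Slc7a10 and Slc1a2, and in all 13 of the 32 genes overlap another annotated gene. Whether the counting used the strand is not given in the sources used here, so these counts are uncertain.

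Among the 5 transport and adhesion genes, 2 were lower, 1 was higher and 2 were not called. Slc4a4, a sodium bicarbonate transporter that sets pH, was higher in NAc. It read 6.76, 6.95 and 7.19 in PFC and 7.39, 7.73 and 7.98 in NAc without overlap, with a log2 difference of 0.69 ± 0.15 (SE, edgeR adjusted p = 1.22e-04). Atp1b2, the glial beta subunit of the sodium pump, was lower, at -0.63 ± 0.15 (SE, edgeR adjusted p = 7.66e-04), from 9.15, 9.32 and 9.63 in PFC to 8.26, 8.78 and 9.10 in NAc. Hepacam, an adhesion molecule of astrocyte endfeet, was also lower, at -0.36 ± 0.10 (SE, edgeR adjusted p = 0.00352). The water channel Aqp4 read 6.36, 6.50 and 6.95 in PFC and 6.01, 6.11 and 6.41 in NAc. It was not called, at -0.38 ± 0.16 (SE, edgeR adjusted p = 0.0579), and neither was the endfoot membrane protein Mlc1, at -0.13. Aqp4 was called at -0.51 with 2 surrogate variables (edgeR adjusted p = 9.81e-04) and with the oligodendrocyte score (edgeR adjusted p = 0.0116).

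Of the connexins, which form the gap junctions between astrocytes, 1 of 2 was called. Gjb6 read 5.96, 6.13 and 6.24 in PFC and 4.35, 5.25 and 5.86 in NAc, with every NAc library below the PFC range and a log2 difference of -0.88 ± 0.22 (SE, edgeR adjusted p = 9.14e-04). Gja1 read 7.27, 7.49 and 7.72 in PFC and 7.06, 7.30 and 7.56 in NAc, which overlapped, and was not called at -0.17 (95% interval -0.41 to 0.07), although 2 surrogate variables gave -0.26 and a call (edgeR adjusted p = 0.0295). Whether the connexins differ from each other in this contrast was not tested.

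Of the 4 genes of cytoskeleton, calcium binding and identity, 2 were lower, 1 was higher and 1 was not called. Gfap, the intermediate filament of astrocytes (ENSMUSG00000020932; chromosome 11, 102887336 to 102900912, minus strand, GRCm38), had the largest fall. Its saline libraries read 7.44, 7.86 and 8.37 in PFC and 5.37, 6.34 and 6.88 in NAc, and none overlapped. The log2 fold change was -1.47 ± 0.32 (SE, edgeR adjusted p = 1.69e-04), or 0.361 of the PFC level. Aldh1l1, a folate enzyme used as a general astrocyte marker, read 6.47, 6.83 and 7.10 in PFC and 5.58, 6.18 and 6.50 in NAc, where the highest library just reached the PFC range, and was lower as well, at -0.69 ± 0.12 (SE, edgeR adjusted p = 3.5e-06). S100b, a calcium-binding protein that some oligodendrocytes also make, read 5.94, 6.55 and 7.07 in PFC and 6.51, 6.92 and 7.39 in NAc, and was higher by 0.46 ± 0.18 (SE, edgeR adjusted p = 0.0369), a call lost without any of 7 libraries (PFC numbers 2, 3, 6 and 7, NAc numbers 2, 5 and 6). Oligodendrocyte markers stood above 0 for 10 of 10 genes in the same contrast (median 0.48, 3 called, a summed CPM median of 6878 in PFC and 10018 in NAc), and with their score as a covariate S100b had 0.29 and an edgeR adjusted p of 0.187 (with 2 surrogate variables, 0.31 and 0.0719). The transcription factor Sox9 was not called, at -0.20.

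Among receptors and surface proteins 1 of 4 was called, and in metabolism 2 of 4, all of them lower. The growth factor receptor Fgfr3 was lower, at -0.32 ± 0.12 (SE, edgeR adjusted p = 0.0312), a call that was lost under 4 other settings and without any of 7 libraries (PFC numbers 1, 6 and 7, NAc numbers 1, 3, 5 and 7). The neurotensin receptor Ntsr2 read 6.68, 7.04 and 7.22 in PFC and 6.29, 7.16 and 7.68 in NAc, a difference of 0.06. It was not called, and neither were Bmpr1b, at -0.04, and tissue factor (F3), at -0.17. The glycolytic enzyme Aldoc was lower, at -0.54 ± 0.12 (SE, edgeR adjusted p = 1.63e-04). Ppp1r3c, which brings a phosphatase to glycogen and promotes its synthesis, was lower, at -0.47 ± 0.13 (SE, edgeR adjusted p = 0.0034). Cbs, of the transsulfuration pathway, had -0.39 (edgeR adjusted p = 0.055) although its groups did not overlap, and the lipid phosphatase Plpp3 had -0.07. Cbs was called at -0.47 with 2 surrogate variables (edgeR adjusted p = 1.68e-04) and at -0.55 with the oligodendrocyte score (0.00369), and F3 at -0.24 with the surrogate variables (0.0391).

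Of the 5 secreted proteins, 3 were lower, 1 was higher and 1 was not called. Agt (ENSMUSG00000031980; chromosome 8, 124556534 to 124569706, minus strand, GRCm38), from which angiotensins are cut, read 3.10, 3.26 and 5.30 in PFC and 4.65, 6.25 and 7.80 in NAc. The groups overlapped only through PFC number 5 at 5.30 and NAc number 3 at 4.65. Its log2 fold change was 2.80 ± 0.67 (SE, edgeR adjusted p = 6.6e-04), a 6.98-fold higher level in NAc. With 2 surrogate variables it was 1.96 ± 0.39 (SE, edgeR adjusted p = 3.41e-05). The serine protease Htra1 read 7.30, 7.57 and 7.82 in PFC and 6.52, 6.91 and 6.98 in NAc without overlap and was lower, at -0.72 ± 0.09 (SE, edgeR adjusted p = 4.88e-09). Clu (-0.63 ± 0.09, SE) and Sparcl1 (-0.57 ± 0.13, SE) were lower too, also without overlap, with edgeR adjusted p of 3.82e-08 and 4.48e-04. Apoe, the most abundant of the 32, was not called at 0.13.

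**Figure D2:**
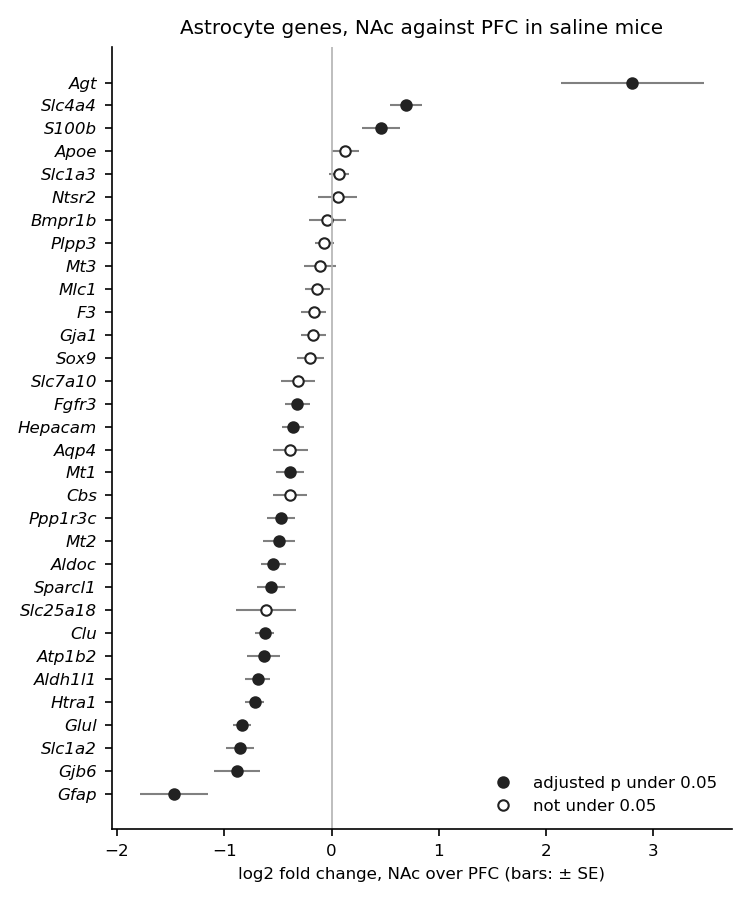
Log2 fold change of NAc over PFC in saline mice (edgeR, ± SE) for each of the 32 genes, filled where called and open where not. The 15 filled points to the left of 0 end with Gfap at -1.47, and of the 3 filled points to the right Agt stands apart at 2.80.

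The 3 metallothionein genes lie beside each other on chromosome 8 (GRCm38, plus strand): Mt3 at 94152607 to 94154146, Mt2 at 94172664 to 94173568 and Mt1 at 94179082 to 94180327. Their coding sequences, from the GENCODE M21 transcripts, are shown because these genes are close copies whose counts are compared here. Capitals mark the cysteine codons that give the metal-binding residues.
Mt1: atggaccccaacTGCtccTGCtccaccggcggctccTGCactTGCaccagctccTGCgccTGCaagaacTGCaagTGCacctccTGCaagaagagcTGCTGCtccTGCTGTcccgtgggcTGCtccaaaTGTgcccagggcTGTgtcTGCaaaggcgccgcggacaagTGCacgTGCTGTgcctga
Mt2: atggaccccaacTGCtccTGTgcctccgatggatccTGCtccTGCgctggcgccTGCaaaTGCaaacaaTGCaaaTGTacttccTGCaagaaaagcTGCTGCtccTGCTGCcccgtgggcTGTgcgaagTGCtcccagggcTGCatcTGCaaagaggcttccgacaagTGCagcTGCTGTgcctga
Mt3: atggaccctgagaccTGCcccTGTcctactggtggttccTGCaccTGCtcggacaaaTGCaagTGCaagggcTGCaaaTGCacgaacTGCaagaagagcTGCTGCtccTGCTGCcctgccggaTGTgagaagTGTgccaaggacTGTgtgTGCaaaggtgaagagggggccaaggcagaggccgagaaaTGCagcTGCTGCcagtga
Each sequence holds 20 cysteine codons, among 61 codons in Mt1 and Mt2 (32.8%) and 68 in Mt3 (29.4%). Over 186 aligned bases, Mt1 and Mt2 were identical at 79.6%, Mt2 and Mt3 at 75.3% and Mt1 and Mt3 at 73.7%. How the authors' counting treated reads that fit several copies is not given in the sources used here.

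Mt1 and Mt2, which metals and stress hormones induce in many cell types, were lower in NAc, whereas Mt3, a brain form that neurons also make, was not called. Mt1 read 7.06, 7.29 and 7.37 in PFC and 6.74, 6.85 and 7.05 in NAc saline libraries, without overlap, with a log2 difference of -0.38 ± 0.13 (SE, edgeR adjusted p = 0.0152). Mt2 read 6.22, 6.43 and 6.47 in PFC and 5.64, 5.88 and 6.06 in NAc, without overlap, and was lower, at -0.49 ± 0.15 (SE, edgeR adjusted p = 0.00757). Mt3 read 7.58, 7.84 and 8.10 in PFC and 7.63, 7.74 and 7.95 in NAc, which overlapped, at -0.11 (95% interval -0.41 to 0.19). Per length, Mt3 had the highest median of the family in both regions, with an RPKM of 215 in PFC and 200 in NAc, against 147 and 100 for Mt2 and 126 and 92.8 for Mt1. With total counts alone as the scaling, Mt1 and Mt2 kept a negative sign but were not called, with edgeR adjusted p of 0.181 and 0.0879.

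For 5 of the most separated genes the region difference had the same sign in each morphine group. For Gfap the log2 fold change of NAc over PFC was -1.45 on chronic morphine, -0.92 at 24 h and -1.32 at 2 weeks. For Agt it was 1.70, 1.85 and 2.25 in the same order, and for Slc1a2 -0.87, -0.65 and -0.75. Glul had -0.74, -0.69 and -0.71, and Gjb6 had -1.03, -1.20 and -0.99. A direct test of whether the effects of morphine stage differed between the regions called 0 of the 32 genes, beside 0.0363% of all genes tested. It had 0 of the 32 at an unadjusted edgeR p under 0.05, beside 4.78% of all genes, and 0 were called by DESeq2. Its smallest p was that of Htra1, at 0.132 (edgeR adjusted p = 0.986).

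During and after morphine, the genes that edgeR called were in NAc. On chronic morphine against saline it called 1 of 32, beside 1.69% of the 18382 genes tested, and that was Apoe, which was lower. DESeq2 called 2, Apoe and Sox9, and 7 of the 32 genes had an unadjusted edgeR p under 0.05, beside 15.2% of all genes. The median log2 fold change was -0.10, with 7 of 32 above 0, beside -0.01 over all genes. Without number 27 it was -0.09 with 13 of 32 above 0, and with the striatal score described below as a covariate -0.05 with 10 of 32. The share of all genes called on chronic morphine was 0.636% without number 27. At 2 weeks after morphine against chronic morphine, edgeR called 3 of 32, beside 1.88% of all genes, and all 3 were higher at 2 weeks: Apoe, Ppp1r3c and Sox9. The median was 0.13 there, with 28 of 32 above 0, and -0.00 over all genes. Without number 27 it was 0.08 with 24 of 32 above 0, and 1.09% of all genes were called. Both contrasts share the chronic morphine libraries, so an opposite sign in them is not independent evidence. The summed share of the 32 genes in the NAc counts was 1.26% ± 0.10 (SD, n = 7) on saline, 1.11% ± 0.11 (SD, n = 8) on chronic morphine, 1.23% ± 0.19 (SD, n = 9) at 24 h and 1.25% ± 0.12 (SD, n = 8) at 2 weeks.

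Apoe (ENSMUSG00000002985; chromosome 7, 19696109 to 19699188, minus strand), the main lipid carrier that astrocytes secrete, had a lowest, median and highest log2 CPM in NAc of 11.05, 11.23 and 11.30 on saline and 10.73, 10.93 and 11.15 on chronic morphine. At 24 h it read 10.79, 11.13 and 11.45, and at 2 weeks 11.18, 11.26 and 11.46. Of the 8 chronic libraries 7 lay below every saline library, and all 8 libraries of 2 weeks lay above every chronic one. The share of all genes that separate in this way was not counted for the stage contrasts. The log2 fold change was -0.30 ± 0.08 for chronic morphine over saline (SE, edgeR adjusted p = 0.0416) and 0.40 ± 0.08 for 2 weeks over chronic morphine (SE, edgeR adjusted p = 0.00284). The first call rested on single libraries: without number 27 Apoe had -0.27 and an edgeR adjusted p of 0.142, and leaving out libraries singly it was lost for 12 of 32 (numbers 1, 2, 5, 6, 7, 9, 20 and 26 to 30). The second held for each of the 32 and was 0.38 ± 0.08 without number 27 (SE, edgeR adjusted p = 0.0151).

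Ppp1r3c (ENSMUSG00000067279; chromosome 19, 36731731 to 36736653, minus strand), the glycogen-targeting subunit named above, read 5.18, 5.39 and 5.51 on saline and 4.88, 5.09 and 5.27 on chronic morphine in NAc. At 24 h it read 5.22, 5.39 and 5.63, and at 2 weeks 5.15, 5.54 and 5.76. Of the 8 libraries at 2 weeks 6 stood above all chronic ones, and 4 of 8 chronic libraries stood below all saline ones. It rose by 0.41 ± 0.08 from chronic morphine to 2 weeks (SE, edgeR adjusted p = 0.00381), a call kept in all 32 fits that left out a library, and had -0.26 ± 0.08 for chronic morphine over saline without being called (edgeR adjusted p = 0.0962). Without number 27 the 2-week value was 0.42 ± 0.09 (SE, edgeR adjusted p = 0.0108).

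Sox9 (ENSMUSG00000000567; chromosome 11, 112782224 to 112787760, plus strand), a transcription factor that maintains astrocyte identity, read 4.39, 4.52 and 4.93 on saline and 3.73, 4.20 and 4.52 on chronic morphine in NAc. The 24 h libraries read 4.01, 4.47 and 4.98 and the 2-week libraries 4.46, 4.61 and 4.82. On chronic morphine 7 of 8 libraries were below all saline libraries, and 6 of 8 at 2 weeks were above all chronic ones. Its log2 fold change was -0.41 ± 0.12 for chronic morphine (edgeR adjusted p = 0.0596, DESeq2 called it) and 0.43 ± 0.11 for 2 weeks over chronic morphine (SE, edgeR adjusted p = 0.045). The latter call was lost when any of 22 of the 32 libraries was left out (numbers 3 to 16, 22 and 25 to 31), with an edgeR adjusted p of 0.106 without number 27.

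**Figure D3:**
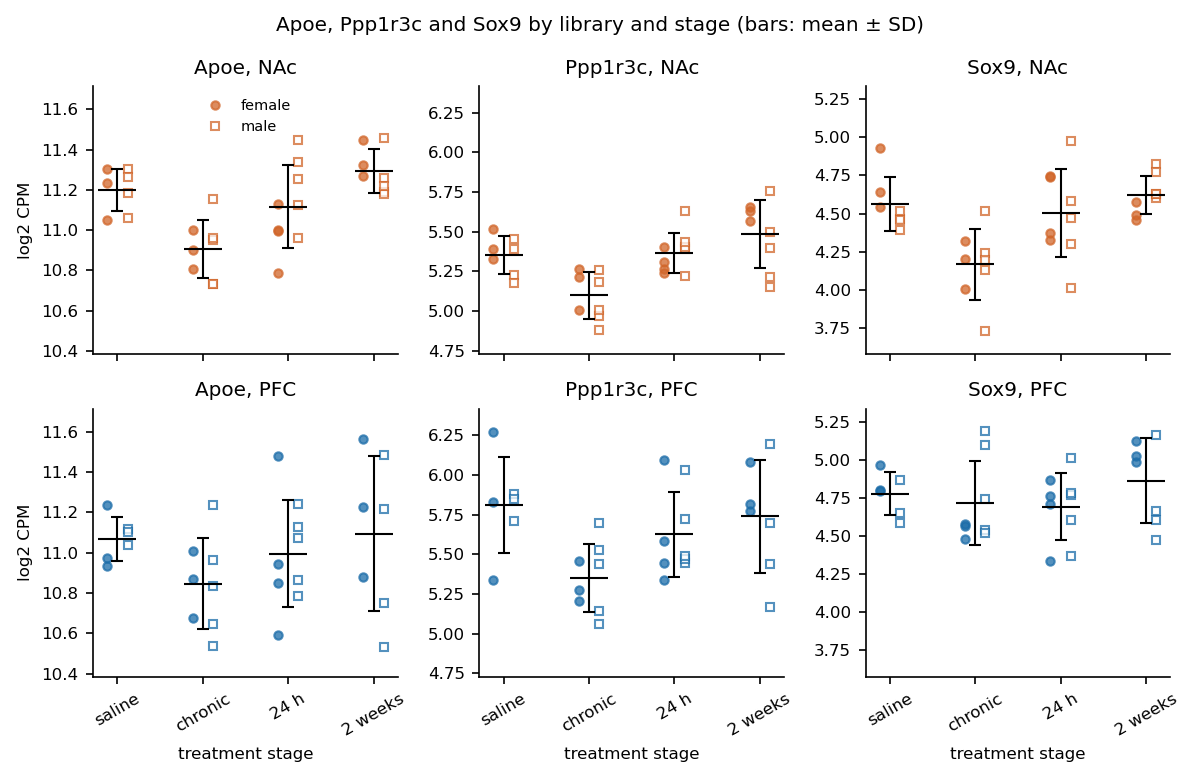
Log2 CPM of Apoe, Ppp1r3c and Sox9 in each library by morphine stage, NAc above and PFC below, with filled circles for libraries labelled female, open squares for males and bars for the mean ± SD. In NAc the mean on chronic morphine is the lowest of the stages for each gene, and for Apoe all 8 libraries of 2 weeks lie above all chronic ones.

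Some measures of tissue and library make-up in the same contrasts were as follows, and beyond the fits given here their part in the results was not tested. Striatal projection neuron markers stood above 0 for 10 of 10 genes on chronic morphine in NAc (median 0.58, 0 called by edgeR and 0 at an unadjusted p under 0.05, a summed CPM of 448 to 5641 on saline and 501 to 8959 on chronic morphine), and for 0 of 10 at 2 weeks over chronic morphine (median -0.18). With the striatal score as a covariate, Apoe had -0.27 (edgeR adjusted p = 0.0227) and Sox9 -0.45 (edgeR adjusted p = 0.0196) on chronic morphine. Of the microglia markers, Aif1 was called at 2 weeks over chronic morphine in NAc, at -0.71 ± 0.18 (SE, edgeR adjusted p = 0.0297), beside 1.88% of all genes. The summed CPM of these markers was 477 to 702 on chronic morphine and 467 to 805 at 2 weeks. The pseudogene Gm10263 was either high, at 2.96 log2 CPM or more, or low, at -0.94 or less, in every NAc library. All 8 chronic libraries were high, all 8 at 2 weeks were low, and on saline the 4 males were high and the 3 females low. For 2 weeks against chronic morphine this state and the stage cannot be told apart. Among males alone, all high on saline and chronic morphine, Apoe had -0.30 and was not called (edgeR adjusted p = 0.312).

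By edgeR in the design given here, the other 29 genes were not called at any stage in NAc. With 2 surrogate variables, where 4.81% of all genes were called on chronic morphine and 6.56% at 2 weeks over chronic morphine, the sodium pump subunit Atp1b2 was called in both (-0.18 and 0.22, edgeR adjusted p = 0.045 and 0.00765), Ppp1r3c in the first (-0.28, 0.0414) and Clu in the second (0.15, 0.0346). Clu was also called in the second with the striatal score (0.17, edgeR adjusted p = 0.0301). At 24 h against saline edgeR called 0 of 32, beside 0.163% of all genes. An unadjusted p under 0.05 was found for 4 of 32, beside 12.1% of all genes. DESeq2 called 1, Htra1 (adjusted p = 0.00971), as did edgeR with 2 surrogate variables (adjusted p = 0.0244). Without number 25 or number 26, edgeR also called 1. Htra1 (ENSMUSG00000006205; chromosome 7, 130936111 to 130985660, plus strand), a protease that cuts matrix and growth factor binding proteins, read 6.52, 6.91 and 6.98 on saline, 6.66, 6.87 and 7.27 on chronic morphine, 7.01, 7.16 and 7.39 at 24 h and 6.89, 7.08 and 7.22 at 2 weeks. All 9 libraries at 24 h were above all 7 on saline, and the log2 fold change was 0.32 ± 0.07 (SE, edgeR adjusted p = 0.0608). It overlaps Fgfr2 on the other strand, which makes its count uncertain. At 2 weeks against saline edgeR called 0 of 32, beside 0.00544% of all genes, and DESeq2 called 0. An unadjusted edgeR p under 0.05 was found for 1 gene (Htra1, 0.20 ± 0.08, SE, edgeR adjusted p = 0.596), beside 6.44% of all genes.

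For the canonical astrocyte genes in NAc, the differences from saline came with intervals that show what size the spread still allows. Gfap read 5.09, 6.29 and 7.10 on chronic morphine, with a log2 fold change of -0.09 (95% interval -0.77 to 0.60), and had 0.44 at 24 h (-0.22 to 1.11) and 0.09 at 2 weeks (-0.60 to 0.77). Aqp4 had -0.10 on chronic morphine (95% interval -0.39 to 0.20), with libraries at 5.71, 6.02 and 6.54. Slc1a2, at 9.82, 10.44 and 10.74, had 0.08 (-0.17 to 0.34), and Slc1a3, at 8.85, 9.05 and 9.24, had -0.14 (-0.27 to -0.00). Gja1, the main astrocyte connexin, read 6.67, 7.03 and 7.42 on chronic morphine and had -0.28 (-0.50 to -0.06), and was not called with an edgeR adjusted p of 0.179. The metallothioneins, which bind zinc and copper, overlapped their saline ranges in NAc. On chronic morphine Mt1 read 6.31, 6.91 and 7.28, Mt2 5.49, 5.94 and 6.58, and Mt3 7.59, 7.81 and 7.88. Their log2 fold changes were 0.03 for Mt1 (-0.17 to 0.24), 0.08 for Mt2 (-0.15 to 0.31) and 0.02 for Mt3 (-0.12 to 0.17), and at 2 weeks -0.02 (-0.22 to 0.19), -0.06 (-0.30 to 0.17) and 0.05 (-0.09 to 0.20) in the same order. At 24 h they were 0.05 (-0.15 to 0.25), 0.10 (-0.12 to 0.33) and -0.12 (-0.26 to 0.02).

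**Figure D4:**
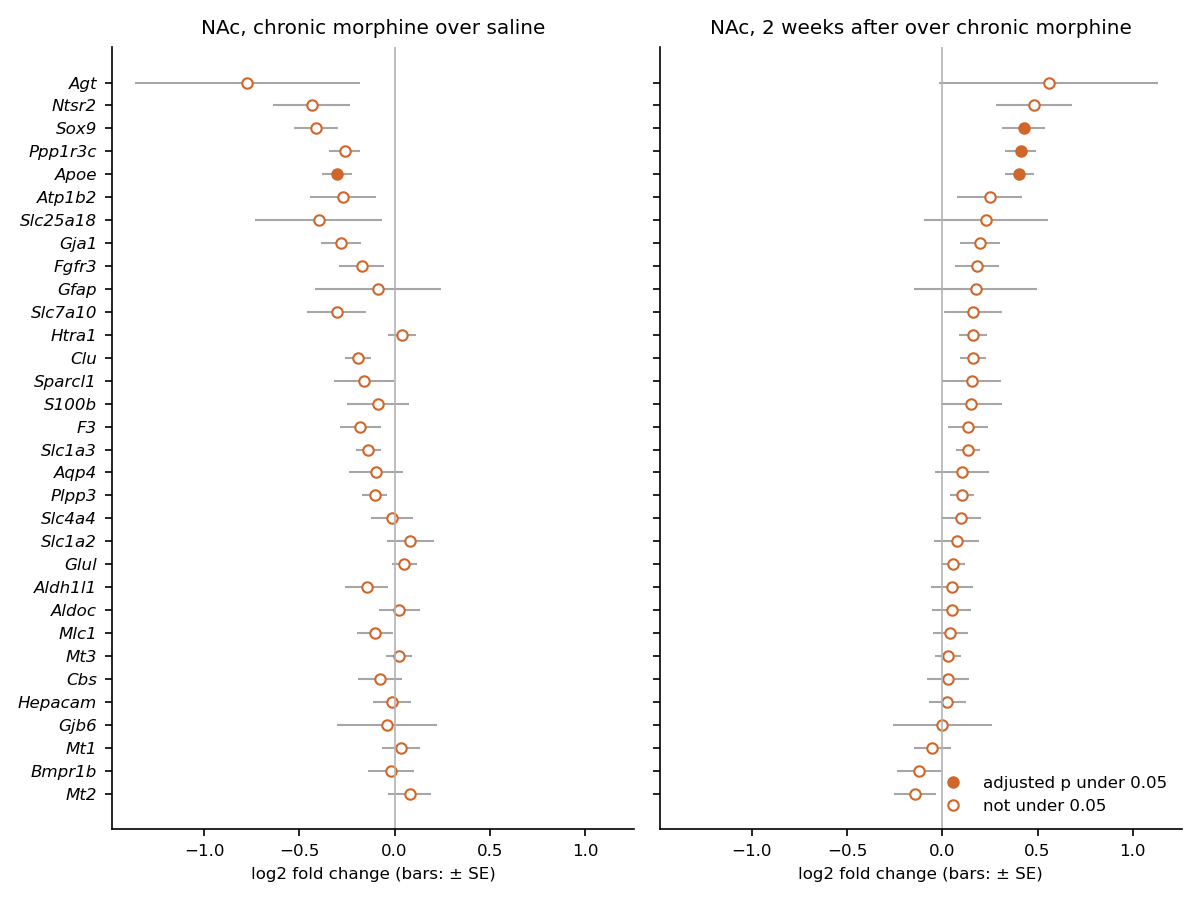
Log2 fold change (edgeR, ± SE) of all 32 genes in NAc for chronic morphine over saline and for 2 weeks over chronic morphine, filled where called. Apoe is the filled point in the first contrast, and Apoe, Ppp1r3c and Sox9 are the filled points in the second, with 28 of 32 genes to the right of 0.

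In PFC edgeR called none of the 32 genes at any stage. On chronic morphine it called 0 of 32, beside 0.417% of the 17966 genes tested, and 3 had an unadjusted p under 0.05, beside 7.91%. At 24 h it called 0, beside 0.0779%, and 0 had an unadjusted p under 0.05, beside 3.01%. At 2 weeks it called 0, beside 0.00557%, and 1 had an unadjusted p under 0.05, beside 5.04%. For 2 weeks over chronic morphine it called 0, beside 0.824%, and 6 had an unadjusted p under 0.05, beside 13.8%. DESeq2 called 0 in each of these contrasts. The median log2 fold change of the 32 genes was -0.05, -0.03 and 0.00 over saline in the order of the stages and 0.03 for 2 weeks over chronic morphine.

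Ppp1r3c had the smallest p in PFC for both contrasts that hold the chronic group, as values that were not called. Its libraries read 5.34, 5.84 and 6.27 on saline, 5.06, 5.36 and 5.70 on chronic morphine, 5.34, 5.49 and 6.09 at 24 h and 5.17, 5.77 and 6.20 at 2 weeks, and the groups overlapped. The log2 fold change was -0.48 ± 0.16 on chronic morphine (SE, edgeR adjusted p = 0.333) and 0.43 ± 0.15 for 2 weeks over chronic morphine (SE, edgeR adjusted p = 0.192). Apoe in PFC read 10.94, 11.07 and 11.24 on saline, 10.53, 10.85 and 11.24 on chronic morphine and 10.53, 11.22 and 11.57 at 2 weeks, with overlapping groups. The smallest p at 24 h was that of Gja1, which read 6.78, 7.28 and 7.47 there and had -0.22 ± 0.12 (SE, edgeR adjusted p = 1). At 2 weeks it was that of Bmpr1b, with -0.45 ± 0.21 (SE, edgeR adjusted p = 0.947), whose lowest library was number 10 at 2.45, the one of low depth, beside 3.73 to 4.92 in the other 6. The canonical genes overlapped their saline ranges in PFC as well. Gfap read 7.05, 7.49 and 8.41 and Aqp4 6.16, 6.53 and 7.16 on chronic morphine. Gfap had -0.09 (95% interval -0.59 to 0.41), Aqp4 0.00 (-0.34 to 0.34), Slc1a2 0.11 (-0.14 to 0.37) and Slc1a3 -0.22 (-0.45 to 0.01). The metallothioneins read 6.97, 7.30 and 7.76 (Mt1), 6.06, 6.53 and 6.86 (Mt2) and 7.28, 7.63 and 8.46 (Mt3) on chronic morphine. Mt1 had 0.14 (-0.15 to 0.42), Mt2 0.16 (-0.17 to 0.50) and Mt3 -0.10 (-0.48 to 0.28) in that contrast.

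The sexes were compared over all stages in each region. edgeR called 0 of 32 between females and males in PFC, beside 0.0334% of all genes. There 2 had an unadjusted p under 0.05, beside 4.54%. In NAc edgeR called 0, beside 0.0598%, and 0 had an unadjusted p under 0.05, beside 4.79%. DESeq2 called 0 in both regions. The smallest p belonged to Slc25a18 in PFC, with 0.23 ± 0.11 for females over males (SE, edgeR adjusted p = 0.946), and to Slc1a3 in NAc, with -0.08 ± 0.05 (SE, edgeR adjusted p = 0.918). Number 27 counts among the females there. For a difference of the stage effects between the sexes, edgeR called 0 of 32 in PFC, beside 0% of all genes. There 4 had an unadjusted p under 0.05, beside 4.71%. In NAc it called 0, beside 0.0544%, and 5 had an unadjusted p under 0.05, beside 9.56%. DESeq2 called 0 of these genes in either region. Agt had the smallest p in PFC (edgeR adjusted p = 0.456), where the chronic group read 2.17, 2.84 and 6.85 and the highest library was number 25, labelled female. F3, the initiator of clotting, had the smallest in NAc (edgeR adjusted p = 0.346), with 5.04, 5.48 and 5.52 on saline and 4.93, 5.22 and 5.43 on chronic morphine.

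How much the 32 genes vary among libraries of 1 group differed widely. The residual SD of log2 CPM around the group means was 1.14 in PFC and 1.30 in NAc for Agt, and 0.48 and 0.68 for Gfap. Gjb6 varied by 0.20 in PFC and 0.54 in NAc, and Slc25a18 by 0.71 in NAc. The steadiest genes were Sparcl1 in PFC, at 0.137, and the lipid phosphatase Plpp3 in NAc, at 0.109. The NAc saline libraries of Agt read 6.00, 7.24, 4.65, 6.24, 6.63, 7.80 and 6.25, and those of PFC 3.57, 3.17, 3.36, 5.30, 3.10 and 3.11. A single PFC library therefore reached the NAc range.

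Pairs of genes with related roles were compared across libraries as deviations from the group means, over 7 pairs in 2 regions with p-values from permutation within stage adjusted over the 14 tests. Mt1 and Mt2 varied together in PFC (Pearson r = 0.819, Spearman rho = 0.866, n = 30) and in NAc (r = 0.927, rho = 0.880, n = 32), each with a permutation p of 1e-05, the lowest value possible with 100000 resamples, and an adjusted p of 2.33e-05. Without the 2 libraries farthest from the median of Mt1, r was 0.797 and 0.865. Mt1 and Mt3 had r = 0.729 (rho 0.681, permutation p = 7e-05, adjusted 1.40e-04, r without the 2 farthest 0.629) in PFC and r = 0.463 (rho 0.430, permutation p = 0.00329, adjusted 0.00419, then 0.368) in NAc.

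The other pairs had a positive r in both regions, except the glutamate transporters. Apoe and Clu, both lipid-binding secreted proteins, had r = 0.838 in PFC (rho 0.845, then 0.766) and 0.731 in NAc (rho 0.784, then 0.752), with permutation p = 1e-05 and adjusted p of 2.33e-05 in each. Aqp4 and Gfap, both of endfeet, had r = 0.600 in PFC (rho 0.612, permutation p = 0.00178, adjusted 0.00249, then 0.662) and 0.838 in NAc (rho 0.821, permutation p = 1e-05, adjusted 2.33e-05, then 0.787). The connexins Gja1 and Gjb6 had r = 0.461 in PFC (rho 0.400, permutation p = 0.0153, adjusted 0.0179, then 0.412) and 0.802 in NAc (rho 0.865, permutation p = 1e-05, adjusted 2.33e-05, then 0.743). Slc1a2 and Slc1a3, which remove glutamate at the same synapses, had r = 0.613 in PFC (rho 0.529, permutation p = 0.00106, adjusted 0.00185, then 0.496) and -0.098 in NAc (rho -0.113, permutation p = 0.625). Slc1a3 and Aldh1l1 had r = 0.239 in PFC (rho 0.211, permutation p = 0.295) and 0.567 in NAc (rho 0.510, permutation p = 0.00139, adjusted 0.00216, then 0.439). Differences between the regions in r were not tested, and libraries share their scaling.

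NAc libraries differed in how much striatal tissue marker RNA they held. A score of 10 striatal projection neuron markers, added after the data had been seen, ranged from 4.72 to 9.18 log2 CPM with a median of 7.89. The low end was saline number 6 at 4.72 and chronic number 25 at 4.85. As for the pairs above, each r was computed on deviations from the stage by sex means. Of the 32 genes 26 had a negative r with the score across the 32 libraries and 6 a positive one, beside 51.6% negative among the 18372 other genes tested in NAc. An r of -0.5 or below was found for 19 of the 32 (59.4%) and for 20.5% of all genes, and an r of 0.5 or above for 2 of the 32 and for 19% of all genes. The p-values that follow come from permutation within stage and were adjusted over the 32 genes. Aldh1l1 had r = -0.826 (rho -0.828, adjusted permutation p = 2.91e-05, r without the 2 farthest libraries -0.843). Atp1b2 had r = -0.798, Gjb6 -0.794, Aldoc -0.788 and Agt -0.769. Slc1a2 ran the other way, with r = 0.846 (rho 0.830, adjusted permutation p = 2.91e-05, then 0.759), and so did Htra1, with 0.626 (rho 0.540, adjusted permutation p = 0.00128, then 0.432). Of the genes called between stages, Apoe had r = -0.477 (adjusted permutation p = 0.00974), Ppp1r3c 0.077 (adjusted 0.69) and Sox9 0.310 (adjusted 0.102). Agt read 7.80 and 7.29 in the pair of libraries with the lowest score. The score and the genes share each library's scaling and depth.

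**Figure D5:**
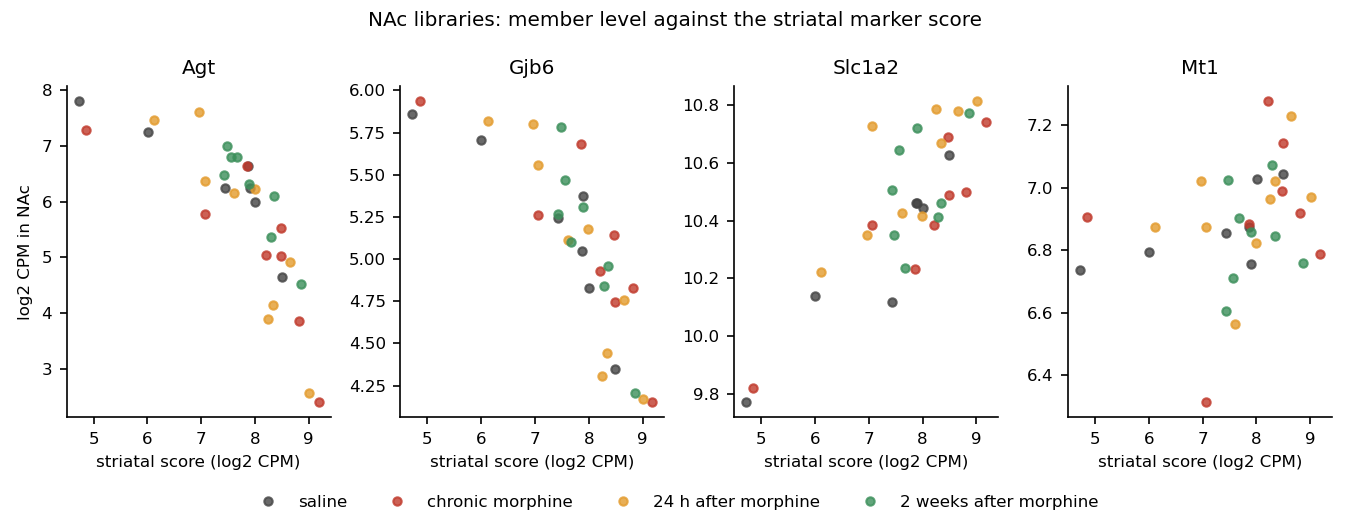
Log2 CPM of Agt, Gjb6, Slc1a2 and Mt1 in each NAc library (n = 32, coloured by stage) against the mean log2 CPM of 10 striatal projection neuron markers. Agt and Gjb6 decline along the score and Slc1a2 climbs. Mt1 has r = 0.260, computed on deviations from the stage by sex means rather than on the levels plotted.

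A further list of 35 genes enriched in astrocytes was counted in the same way. Between the regions 24 of 35 were called, beside 35.9% of all genes, 18 lower and 6 higher in NAc, with a median of -0.33 beside 0.05 over all genes. The bone morphogenetic protein antagonist Chrdl1 (-2.61) and the thyroid hormone deiodinase Dio2 (-1.88) had the largest falls, and the GABA receptor subunit Gabrg1 (2.08) and the hyaluronan-binding chain Itih3 (1.59) the largest rises. On chronic morphine in NAc 1 was called, beside 1.69% of all genes, with 10 of 35 above 0. That gene was the Notch target Hes5, at -0.41 ± 0.10 (SE, edgeR adjusted p = 0.0272). From chronic morphine to 2 weeks 3 were called as higher in NAc, beside 1.88% of all genes called, and 28 of 35 were above 0. The 3 were Hes5 (0.41 ± 0.10), the lipase Pla2g7 (0.83 ± 0.21) and the cytochrome Cyp2d22 (0.75 ± 0.14), with SE and edgeR adjusted p of 0.0220, 0.0330 and 0.0019. In PFC the called genes were Etnppl on chronic morphine, at 1.05 ± 0.23 (SE, edgeR adjusted p = 0.0291), an enzyme of phosphoethanolamine breakdown, and Pla2g7 at 2 weeks over chronic morphine, at 0.62 ± 0.14 (SE, edgeR adjusted p = 0.0291). Of all genes, 0.417% and 0.824% were called in these contrasts.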

How the data were processed

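RNA of 0.5 mm tissue punches was sequenced as total RNA libraries with paired-end reads, per the labels' protocols. The submitters' processing notes name GRCm38 and Rnor_6.0 as builds and FastQC, cutadapt, Trimmomatic, STAR, HISAT2 and RSEM as tools for all samples together. Which of them made the mouse table, the annotation and the strand setting are not given in the sources used here. The authors deposited raw counts per gene, whole numbers with 1 column for each of 62 mouse libraries. Rows without a gene name were dropped before scaling. The rat libraries were not used here. The members and gene lists were chosen with earlier results of these data known.

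Counts were scaled by TMM, filtered by filterByExpr and tested over all genes with the quasi-likelihood test of edgeR 4.0.16 (R 4.3.3, limma 3.58.1). PFC and NAc were fitted apart, with a cell for each stage and sex, and contrasts averaged the sexes. The comparison of regions used all 62 libraries. Adjusted p-values are Benjamini-Hochberg over all genes tested. Log2 CPM used a prior count of 2 and 1 scaling over both regions. RPKM used exon lengths of GENCODE M21 (GRCm38), which held 45143 of the 46078 gene identifiers. The test scripts were checked on simulated data.

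Values are given for every member that was called, for the member of smallest p where none was, for the 6 largest differences in each direction between the regions, and always for the metallothioneins, Gfap, Aqp4, Slc1a2, Slc1a3 and Gja1. From other lists at most 4 called genes per comparison are named. Gm10263 was named after its values were seen.

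The alternatives were DESeq2 1.42.0, size factors by median of ratios, testing without the filter, 2 surrogate variables (sva 3.50.0), marker scores as covariates, leaving out number 27 or each library in turn, and the replicate number as a block. The scaling by total counts alone, the fits of 1 sex or 1 state of Gm10263, the correlations with the striatal score, and the shares of all genes set beside them and beside the overlap of regions were added after seeing the data.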

Additional observations from a re-analysis of the deposited data

Results flagged for a closer look

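In 256 groups of 6 to 9 libraries (32 genes, 2 regions, 4 stages), 15 had a highest or lowest library that stood apart from the rest of its group by Dixon's ratio of gap to range. Chance alone flags about 1 in 20 groups, so the number is close to what chance gives. The 15 values come from 11 libraries.

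PFC number 20, at 24 h after morphine, held 3 of them. Its Slc4a4 (6.13 log2 CPM) and Plpp3 (7.59) were the lowest of their group and its Mt3 (8.66) the highest. NAc number 14, at 2 weeks, was lowest for Slc25a18 (3.85) and Gja1 (6.84). PFC number 1, on saline, was highest for Glul (11.26) and Fgfr3 (7.55).

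Agt stood apart in PFC number 25 on chronic morphine (6.85, beside a group median of 2.84) and in PFC number 5 on saline (5.30, beside 3.26), both as the highest library. Gfap was highest in PFC number 22 at 24 h (9.14, beside a group median of 7.52). The other flags were S100b in NAc number 25 on chronic morphine (7.54, highest), Sparcl1 in PFC number 6 on saline (11.58, highest), Ntsr2 in PFC number 16 at 24 h (6.38, lowest) and Htra1 in NAc number 6 on saline (6.52, lowest). Cbs in PFC number 10 at 2 weeks (3.34, lowest) belongs to the library with the fewest counts.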

How the results depend on the processing

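The number of the 32 genes called on chronic morphine in NAc, 1 by edgeR, was 2 with DESeq2, 4 with 2 surrogate variables, 2 with the oligodendrocyte score, 2 with the striatal score, and 0 without the low-count filter, without number 27, and in males alone (added after seeing the data). At 24 h in NAc, 0 became 1 with DESeq2, 2 surrogate variables, the oligodendrocyte score or the striatal score. For 2 weeks over chronic morphine in NAc, 3 became 5 with 2 surrogate variables, 4 with the striatal score and 2 without number 27 or without the low-count filter. Leaving out each library in turn gave 0 to 2, 0 to 1 and 2 to 3 for these contrasts and 16 to 19 for the regions. For chronic morphine, 12 libraries took the 1 call to 0 (named beside Apoe) and numbers 17, 23 and 32 took it to 2. Between regions, 18 became 17 with median-of-ratios size factors, no filter or DESeq2, 23 with surrogate variables, 20 with the oligodendrocyte score and 14 with total counts alone, which moved the median of all genes from 0.05 to 0.22 and the share of called genes that were higher from 48.5% to 67.6%. In PFC, and for sex and interactions in both regions, 0 were called under each setting. No called gene reversed its sign.

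With the replicate block, that is the library number shared between regions, 19 genes were called between the regions, 17 of them among the 18. Slc7a10 (-0.36) and Aqp4 (-0.36) joined (edgeR adjusted p = 0.0381 and 0.0117) and S100b was lost (edgeR adjusted p = 0.0672). Residuals of same-numbered libraries correlated at 0.00769 to 0.216 (median 0.0679), with 5 of 30 numbers over 0.1, so the block is given here only. The state of Gm10263 was the same in both regions for 30 of 30 numbers. Within a stage and sex it varied only among the 5 males at 24 h, with 3 high and 2 low. For all other numbers the match follows from the group. No paired analysis was possible within a region because each number occurs there once.

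Depth limited PFC number 10 most, and the tissue punches limit any statement per astrocyte. Mt1 lost its call between the regions without NAc number 2 (edgeR adjusted p = 0.0522). Among uncalled genes, the sign of the region difference flipped for Bmpr1b with median-of-ratios size factors and DESeq2, for Ntsr2 with surrogate variables or the oligodendrocyte score, and for Mlc1, Bmpr1b, Plpp3 and Mt3 with total counts. The cause was not tested.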

Other observations

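Genes that reactive astrocytes raise after injury or inflammation (35 listed, 33 tested between regions) were compared in the same way. Between the regions on saline 14 of 33 were called by edgeR, beside 35.9% of all genes, 11 lower and 3 higher in NAc, with a median of -0.37. The called genes with the largest differences in absolute size were Ptgs2, Sphk1, Timp1 and C3. Ptgs2 (-3.17 ± 0.36, SE), Sphk1 (-2.97 ± 0.51, SE) and Timp1 (-2.40 ± 0.91, SE, edgeR adjusted p = 0.0347) were lower in NAc. C3 was higher, at 2.26 ± 0.91 (SE, edgeR adjusted p = 0.0454). Of this list the class I histocompatibility gene H2-T23 was the called gene on chronic morphine in both regions, at -2.34 ± 0.43 in PFC and -1.50 ± 0.29 in NAc (SE, edgeR adjusted p = 0.00446 and 0.00631). Of all genes, 0.417% in PFC and 1.69% in NAc were called there. At 2 weeks over chronic morphine H2-T23 had 2.53 ± 0.43 in PFC and 2.06 ± 0.29 in NAc (SE), beside 0.824% and 1.88% of all genes called. In both regions all chronic libraries were high for Gm10263 and all libraries of 2 weeks low. This state and the stage cannot be told apart in that contrast. On saline, libraries labelled female were low and those labelled male high in both regions. Among libraries labelled female, the state and chronic morphine against saline therefore cannot be told apart either. Values of H2-T23 in males alone are not given here. H2-T23 belongs to a family of similar genes, and its contrasts share the chronic libraries. How reads shared between such genes were counted is not given in the sources used here. H2-D1, another class I gene of the list, went the other way at 2 weeks over chronic morphine in PFC, at -0.67 ± 0.14 (SE, edgeR adjusted p = 0.00777).

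Among 15 genes that glucocorticoids induce, some of which astrocytes use, 3 were called at 24 h in NAc, beside 0.163% of all genes. The lipid droplet protein Plin4 (2.09 ± 0.40, SE) and the transcription factor Zbtb16 (1.33 ± 0.25, SE) were higher, and the growth inhibitor Ddit4 (-0.38 ± 0.06, SE) was lower, with edgeR adjusted p of 0.0245, 0.0219 and 0.00728. Plin4 was also higher on chronic morphine, at 1.55 ± 0.41 (SE, edgeR adjusted p = 0.0451), where 1.69% of all genes were called. Among 12 genes of zinc transport and antioxidant defence, 5 were called between the regions, beside 35.9% of all genes, 3 higher and 2 lower in NAc. The vesicular zinc transporter of glutamatergic neurons, Slc30a3, had the largest difference there (-5.44 ± 0.70, SE). The glutathione enzyme Gclc was lower at 2 weeks than on chronic morphine in NAc, at -0.42 ± 0.09 (SE, edgeR adjusted p = 0.0142), where 1.88% of all genes were called. Srxn1 of the same list was lower in this contrast in PFC, at -0.37 ± 0.08 (SE, edgeR adjusted p = 0.0221), beside 0.824% of all genes.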
